A study of Mus musculus with 2 samples.

Results

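Gene deserts are long stretches of the genome without the start of a protein-coding gene. The open chromatin inside them was described here in the mouse limb at 11.5 days of embryonic development. DNase-seq had been used, in which the enzyme DNase I cuts DNA that is not packed tightly and the cut ends are sequenced, so that open sites appear as peaks. The material was limb tissue of strain B6NCrl from pooled male and female embryos, labelled healthy, with no treatment or mutation named, in 1 group of 2 biological replicates with 1 technical replicate each. The labels give the same donor entry for both, name Illumina HiSeq 2500 and NextSeq 500 instruments for replicate 2 and no instrument for replicate 1, and do not say what share came from forelimbs or hindlimbs. Peaks of both replicates that overlapped by at least 1 bp were merged into shared peaks. A shared peak was taken as a desert peak where its centre lay over 500 kb from every start of a protein-coding transcript in GENCODE M21, on chromosomes 1 to 19 of GRCm38 (mm10). This gave 2834 desert peaks among 115658 shared peaks, or 2.45% (Wilson 95% interval 2.36 to 2.54, which covers counting error over regions only). By the same distance replicate 1 alone had 4408 desert peaks among 170134, and replicate 2 had 4467 among 163248. The rule uses position and no signal.

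Elements that act on genes over long distances are a known feature of limb development. An enhancer is a stretch of DNA bound by transcription factors that raises transcription of a gene on the same chromosome, and looping of the chromatin can bring it close to a promoter that lies far along the sequence. Developmental regulators such as Sox9, which encodes the factor that commits mesenchyme to cartilage, and Sall1, whose zinc finger protein is needed in limb and kidney, are known for wide neighbourhoods without other genes in which such elements lie. The protein CTCF binds a long recognition sequence and marks many ends of chromatin loops. Open chromatin by itself does not show that a site is an enhancer, and distance does not show which gene it acts on.

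The 7 sequences printed here show the kinds of site that the results turn on. They are reference sequence of GRCm38 (mm10), plus strand, over the whole merged peak. Capitals mark a match to the CTCF consensus or to either of 2 E-boxes, CAGATG and CAGCTG, which are short words bound by basic helix-loop-helix factors. Both strands were searched, so CAGATG also appears as CATCTG. The peak called Cited2 side lies at chr10:17074756-17074925 and stands for the strongest desert peaks, as does the peak called Megf9 side at chr4:71131476-71131625. The Cited2 side peak held none of the 3 words, and the Megf9 side peak held 1 CAGATG. The peaks called Sel1l side (chr12:93343096-93343265) and Efnb2 side (chr8:7323096-7323265) were, by the lower of the percentiles in both libraries, the strongest of the 2 deserts with the most peaks, and each held 1 E-box. The peaks called Tox3 side (chr8:89785116-89785285) and Sall1 side (chr8:89571956-89572105) hold CTCF matches toward both ends of a single desert. In the Sall1 side peak the CAGATG word lies inside the CTCF match. The peak called Pcdh9 side (chr14:91243716-91243925) was the farthest from any start. Names give the gene with the nearest protein-coding start and do not name a target.
Cited2 side: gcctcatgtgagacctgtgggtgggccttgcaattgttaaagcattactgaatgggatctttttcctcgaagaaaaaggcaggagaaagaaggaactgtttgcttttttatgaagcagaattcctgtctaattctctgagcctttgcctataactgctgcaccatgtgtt
Megf9 side: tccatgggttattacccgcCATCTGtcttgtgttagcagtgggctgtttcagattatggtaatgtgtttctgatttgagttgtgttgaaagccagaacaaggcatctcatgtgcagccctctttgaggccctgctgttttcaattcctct
Sel1l side: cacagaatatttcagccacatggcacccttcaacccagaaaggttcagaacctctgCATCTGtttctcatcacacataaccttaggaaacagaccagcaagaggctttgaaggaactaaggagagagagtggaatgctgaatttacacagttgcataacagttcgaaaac
Efnb2 side: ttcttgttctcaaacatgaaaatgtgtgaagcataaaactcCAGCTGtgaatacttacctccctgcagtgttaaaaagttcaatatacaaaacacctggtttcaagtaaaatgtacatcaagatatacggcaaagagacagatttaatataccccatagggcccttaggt
Tox3 side: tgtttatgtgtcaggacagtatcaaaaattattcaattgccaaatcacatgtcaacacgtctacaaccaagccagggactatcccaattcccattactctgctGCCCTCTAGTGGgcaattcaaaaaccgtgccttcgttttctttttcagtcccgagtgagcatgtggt
Sall1 side: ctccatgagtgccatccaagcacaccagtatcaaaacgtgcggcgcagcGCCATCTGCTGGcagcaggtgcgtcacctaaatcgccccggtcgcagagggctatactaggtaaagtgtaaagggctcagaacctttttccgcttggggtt
Pcdh9 side: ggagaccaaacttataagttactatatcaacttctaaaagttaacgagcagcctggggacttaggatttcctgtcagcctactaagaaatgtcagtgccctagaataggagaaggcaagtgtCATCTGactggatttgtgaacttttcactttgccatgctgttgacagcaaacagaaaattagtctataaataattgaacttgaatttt

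Shared peaks were counted at the promoters of cell type markers, with promoters defined as within 1 kb of a protein-coding start. All 8 limb mesenchyme markers had a shared promoter peak, as did 4 of 5 markers of surface ectoderm, 4 of 4 neural markers, 1 of 3 of muscle precursors and 1 of 4 of endothelium. None of 4 erythroid, 3 white blood cell and 3 liver markers had one. Neural markers were as complete as those of limb mesenchyme, so these counts cannot by themselves settle the tissue label. No share over all protein-coding genes is given beside them. The tissue is a mixture, and fewer cells with an open site cannot be told apart from a site less open in each cell. With 2 libraries an exact sign-flip test cannot go below p = 0.5, so no test was made, and each value is given for both replicates.

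Desert peaks were sparse for the sequence they lie in. Sequence over 500 kb from every start came to 250.3 Mb in 328 separate deserts, or 10.4% of the sequence of these chromosomes, against 2.45% of shared peaks. The density was 11.3 shared peaks per Mb. Sequence at 100 to 500 kb held 30.7 per Mb, sequence at 10 to 100 kb held 43.1, sequence at 1 to 10 kb held 55.1 and promoters held 436. In replicate 1 alone deserts held 17.6 peaks per Mb against 46.9 at 100 to 500 kb, and in replicate 2 they held 17.8 against 45.6. The order of the distance classes was the same in both libraries, and the gap between the last pair of classes was wider than that between the libraries. Within deserts the density went from 15.4 per Mb at 500 to 750 kb to 9.95 at 750 to 1000 kb, 6.39 at 1000 to 1500 kb and 6.57 beyond. On either side of the threshold 677 shared peaks lay at 450 to 500 kb and 553 at 500 to 550 kb, with median signals of 47 and 37 just outside and 45 and 36 just inside (replicate 1 and replicate 2). The median distance of a desert peak was 669 kb, 496 lay over 1000 kb away, and the farthest was Pcdh9 side, at 2642 kb.

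**Figure D1:**
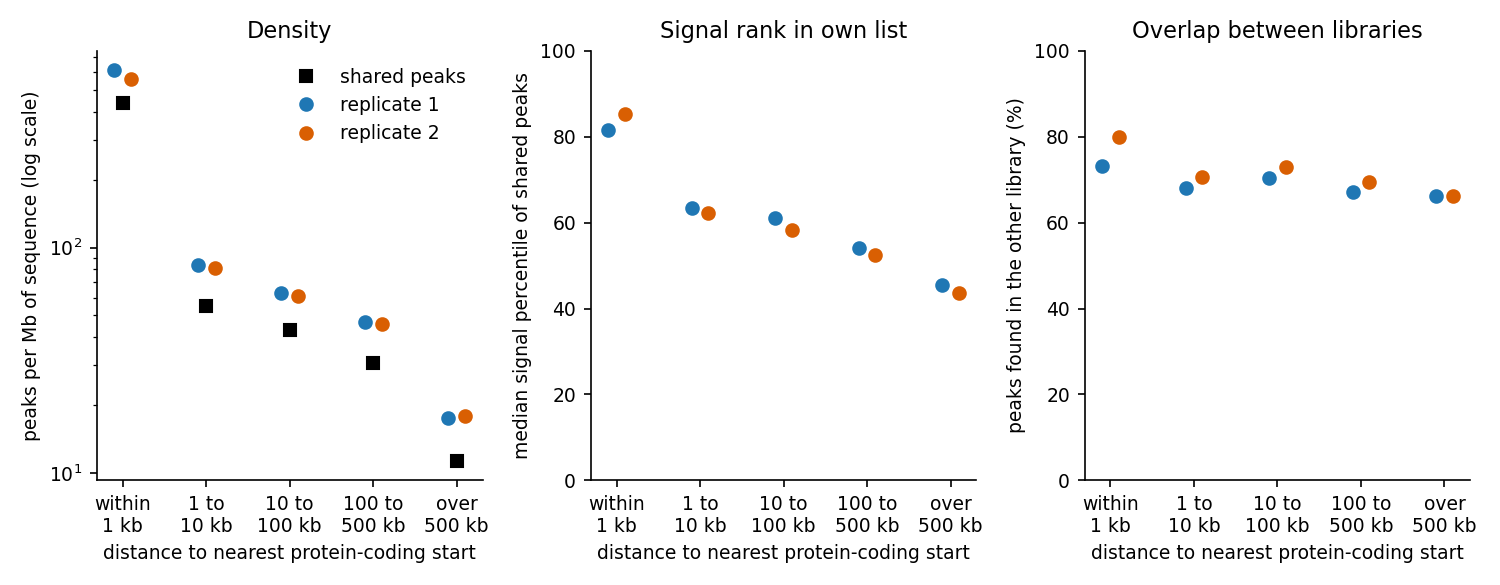
Peaks per Mb of sequence (log axis), median signal percentile of shared peaks within each library's own list, and share of a library's peaks that overlap a peak of the other, by distance to the nearest protein-coding start. Points are the 2 replicates and black squares the shared peaks; density and signal rank are lowest over 500 kb, while the shares found differ less.

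The deposited signal of a peak is the authors' own value, whole numbers whose scaling is not stated, and was used to rank peaks within a list. Desert peaks had a median signal of 44 in replicate 1 (quartiles 35 and 57, range 8 to 122) and 35 in replicate 2 (quartiles 27 and 47, range 8 to 113). As a rank among all peaks of the same library, the median was the 45.5 percentile in replicate 1 and the 43.6 percentile in replicate 2. Shared peaks at 100 to 500 kb stood at 54.0 and 52.4, and promoter peaks at 81.5 and 85.2. In both libraries desert peaks thus ranked lowest of the 5 distance classes. Few were strong: 23 desert peaks, or 0.812%, lay in the top decile of both lists, against 12% of all shared peaks. Per list, the top decile held 2.19% of desert peaks in replicate 1 and 1.02% in replicate 2. For shared peaks at 100 to 500 kb it held 4.88% and 3.12%. The hotspots that hold the desert peaks, which are wider regions with a deposited −log10 q value, stood at the ceiling of 100 for 41.8% of desert peaks in replicate 1 and 38.2% in replicate 2. At 100 to 500 kb these shares were 46.6% and 42.0%.

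The signals of the libraries followed each other across desert peaks, with a Spearman rho of 0.828 over 2834 regions. This is a description across regions of the same 2 libraries, which are not independent replicates. The signal was higher in replicate 1 for 2407 desert peaks and in replicate 2 for 352, but the lists as a whole also differ, with medians over all peaks of 47 and 39. On ranks the excess was small, with 1594 desert peaks ranked higher in replicate 1. For 1635 desert peaks, or 57.7%, the percentiles in both lists were within 10 of each other.

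**Figure D2:**
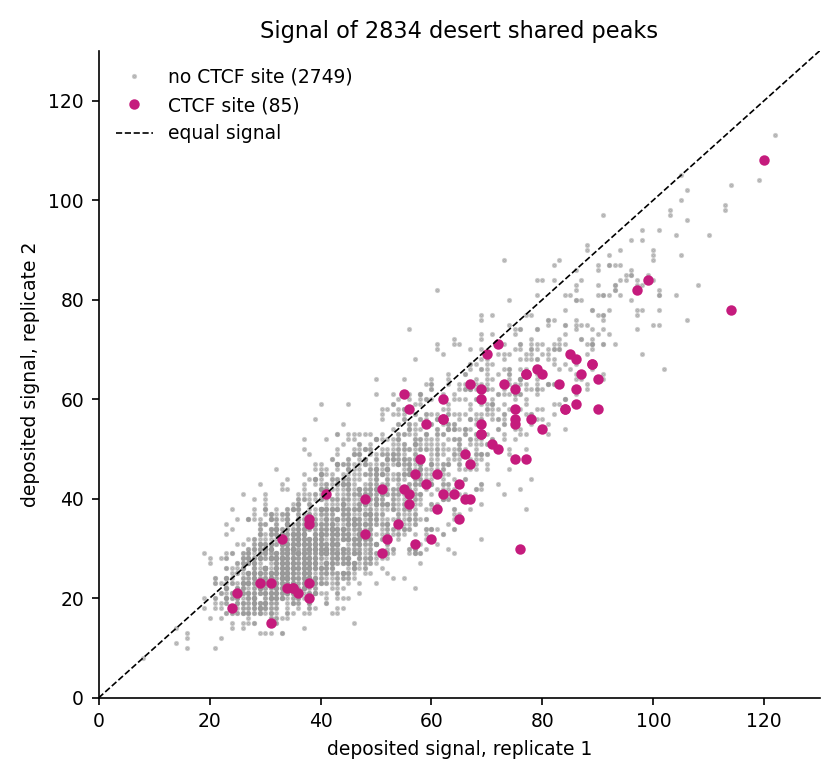
Deposited signal of each of 2834 desert shared peaks in replicate 1 (x axis) and replicate 2 (y axis), with the 85 that hold a CTCF site in colour and a dashed line at equal signal. Most points lie below the line, and the coloured points reach high values in both replicates.

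Peaks in deserts were found again in the other library less often than peaks nearer to starts as a whole, but more often within each of signal deciles 1 to 7. Of the replicate 1 desert peaks 66.2% overlapped a replicate 2 peak, and of the replicate 2 desert peaks 66.1% overlapped a replicate 1 peak. Over all peaks these shares were 69.9% and 73.2%, and over peaks at 1 to 500 kb they were 69.0% and 71.5%. Desert peaks are weaker, however, and weak peaks are found less often in either class. When the peaks at 1 to 500 kb were weighted to the signal deciles of desert peaks, 59.0% and 60.3% were found. In the fourth decile of replicate 1, 71.2% of 566 desert peaks were found against 60.9% of the peaks at 1 to 500 kb, and in that decile of replicate 2 the shares were 79.3% of 627 against 67.3%. In the lowest decile they were 30.4% against 25.5% and 25.4% against 23.9%. Desert peaks whose position was covered by no peak and no hotspot in the other library numbered 1317 (29.9%) in replicate 1 and 1409 (31.5%) in replicate 2, against 25.8% and 25.3% of peaks at 1 to 500 kb, with no weighting by signal. The strongest of them had signals of 60 and 55. The 2 directions are not independent measurements.

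**Figure D3:**
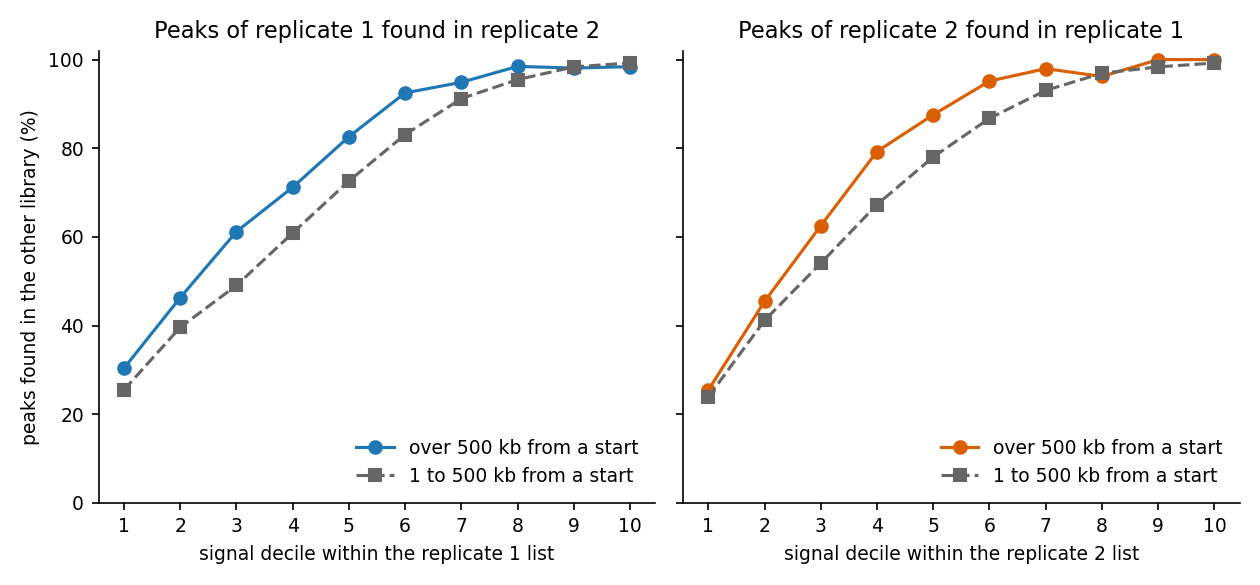
Share of a library's peaks that overlap a peak of the other library (y axis, %) by decile of signal within its own list (x axis), for peaks over 500 kb and at 1 to 500 kb from a start. Desert peaks lie above the others in deciles 1 to 7 of both libraries, and the classes meet near 100% in the highest deciles.

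The sequence under desert peaks differed from the deserts around them. The median GC content of the central 150 bp was 44.0%, against 37.6% over the desert sequence, 47.3% for shared peaks at 100 to 500 kb and 62.7% for promoter peaks. Of the desert peaks 27.5% held no CpG, against 17.5% at 100 to 500 kb. The centre base lay in sequence masked as repeat for 230 desert peaks, or 8.12%, against 8.34% over all shared peaks and 41.3% of desert sequence. The share of masked centres was thus near that of peaks elsewhere, although deserts held more masked sequence than the 34.7% at 100 to 500 kb.

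A CTCF site, counted as an exact match to a 12-letter consensus with ambiguous letters, was found in the central 150 bp of 85 desert peaks, or 3.0% (Wilson 95% interval 2.43 to 3.69, counting error over regions only). This compares with 5.44% of all shared peaks, 3.61% at 100 to 500 kb and 0.0204% of 1668488 windows of 150 bp over the deserts. Over all desert peaks of each library, shared or not, the shares were 2.16% and 2.04%. Desert peaks with the site were stronger, with median signals of 66 and 50 against 43 and 34 without it. Peaks at 1 to 500 kb differed in the same direction, with 76 and 61 against 52 and 43. The hotspots of desert peaks with the site stood at the ceiling for 80.0% and 70.6%, against 40.6% and 37.2% without it. In the strongest of 4 equal ranges of desert peaks, ordered by the lower of both percentiles, 7.18% held the site, against 1.53% in the weakest. Desert peaks with a CTCF site also ranked higher in replicate 1 more often, in 68 of 85 or 80.0%, against 55.5% of desert peaks without one. Peaks at 1 to 500 kb showed the same split, 78.5% against 57%. The part that instrument or handling of the libraries has in this was not tested.

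The other 15 of 16 motifs were searched as words on both strands of the same windows, and a match is a description, not a bound site. CAGCTG lay in 16.1% of desert peaks, against 3.63% of desert windows and 17.4% of peaks at 100 to 500 kb. CAGATG, the E-box bound by Twist-type factors among others, lay in 23.3%, against 10.4% and 22.6%. MEIS factors, which are partners of HOX proteins in the proximal limb, have the word TGACAG, which lay in 14.2% against 8.47% and 12.8%. The homeodomain word TAATTA lay in 9.07% of desert peaks, against 7.62% of desert windows, 9.00% of windows 500 bp to either side of the peaks, 7.22% at 100 to 500 kb and 5.31% over all peaks at 1 to 500 kb. The word AGATAAG of GATA factors, known from blood and heart cells, was rarer in desert peaks than in the deserts, 0.635% against 2.43%, and stood at 0.723% at 100 to 500 kb. The NFI palindrome (TTGGC, any 5 bases, GCCAA) lay in 3 desert peaks, or 0.106%. It lay in 0.00521% of desert windows and 0.0916% of peaks at 100 to 500 kb. The words of SOX, GLI, LEF and posterior HOX factors were near or below their share in desert windows. ACAATGG of SOX factors lay in 1.87% of desert peaks against 3.03% of windows, and TGGGTGG of GLI factors, which carry hedgehog signals, in 2.58% against 2.78%. ATCAAAG of LEF factors, which carry Wnt signals, lay in 3.67% against 3.62%, and CAATAAA of posterior HOX factors in 6.14% against 5.80%. The remaining 5 words, of TEAD, AP-1, RUNX, ETS and nuclear receptor factors, lay in 0.776% to 11.8% of desert peaks. For both E-boxes, MEIS and GATA the share differed more between desert peaks and their surroundings than between desert peaks and peaks at 100 to 500 kb.

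Most desert peaks lay outside annotated genes. The centre of 2273, or 80.2%, lay in no annotated protein-coding, long noncoding RNA or pseudogene body and not within 1 kb of a long noncoding RNA start. Those within a long noncoding RNA gene numbered 309, or 10.9%, against 13.7% at 100 to 500 kb. Within 1 kb of the start of one lay 63, or 2.22%, against 2.90% at 100 to 500 kb and 5.66% of all shared peaks. These 63 had median signals of 49 and 41. The strongest of them were the Megf9 side peak (114 and 103), 418 bp from the start of Gm11228, a peak 925 bp from the start of Macrod2os2 (96 and 85) and a peak in the desert beside Nr2f2 (95 and 85), 220 bp from the start of Gm38584. In all 17 desert peaks lay within 10 kb of a microRNA gene, among them 1 that was 79 bp from Mir344c. For this count and for the 80.2% outside genes, no share over other peaks is given here.

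The name gene desert does not hold for every one of these peaks, because distance was taken to starts and not to gene bodies. In all 231, or 8.15%, some of them also within a long noncoding RNA gene, lay inside 1 of 35 long protein-coding genes, whose lengths ran from 535 to 2271 kb. Macrod2, which encodes an enzyme that removes ADP-ribose marks, held 24, Wwox, an oxidoreductase gene, held 20, and Pcdh9, a protocadherin gene, held 16. The 231 had median signals of 45 and 36, close to those of all desert peaks. No share of desert sequence or of other peaks inside such genes is given beside the 231 or the counts per gene. Segments of immunoglobulin and T cell receptor genes were also not counted as protein-coding, and 23 desert peaks lay within 500 kb of one.

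Desert peaks tended to have neighbours, though less often than other peaks. Another shared peak was centred within 20 kb for 1761, or 62.1%, against 80.2% at 100 to 500 kb and 89.7% of all shared peaks. The median distance to the nearest was 10580 bp, against 4750 bp at 100 to 500 kb. Those with a neighbour had median signals of 46 and 37, and the 287 (10.1%) with none within 100 kb had 41 and 32. Joined at gaps of up to 20 kb, desert peaks formed 1718 groups, of which 1093 were single peaks, 561 held 2 to 4 peaks and 64 held 5 or more, with 394 peaks in all. The largest group held 11 peaks in 14.4 kb and lay 549 kb or more from Zfp608, a zinc finger gene, with median signals of 55 and 53. The second held 10 peaks in 28.3 kb and lay 621 kb or more from Cited2, which encodes a transcriptional coactivator, with medians of 63 and 59.5. Groups of 9 lay nearest to Macrod2 (57 and 45) and Adgrl2 (34 and 30).

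The strongest desert peaks were picked by signal, so their high level follows from that choice. The 5 strongest by the lower percentile had signals of 122 and 113, 120 and 108, 105 and 105, 119 and 104, and 114 and 103 in replicates 1 and 2. The first pair lay in the desert between Zfp608 and Gramd3, the third was Cited2 side and the last Megf9 side. The fourth lay 542 kb from Gja1, which encodes the gap junction protein connexin 43, at chr10:56921456-56921625, and held 7 CpGs. All 5 stood at or above the 94.0 percentile in both libraries and at the ceiling of the hotspot value. Pcdh9 side, picked as the farthest, had 50 and 31, or percentiles of 55.5 and 35.1. Median signals at 500 to 750, 750 to 1000, 1000 to 1500 and over 1500 kb were 44, 42, 43 and 45 in replicate 1. In replicate 2 they were 35, 33, 33 and 35.

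Peaks were spread unevenly over the 328 deserts. Deserts without any numbered 47, none of them over 1 Mb long, with 6.97 Mb in all. Each of the 85 deserts over 1 Mb held at least 1, at 0.639 to 38.7 per Mb with a median of 6.21. The 10 deserts with the most peaks held 495, or 17.5%, in 8.6% of the desert sequence, and the 49 with the most held the majority of peaks in 72.3 Mb. Counts per desert in both libraries had a Spearman rho of 0.946 over the 328 deserts, as a description: replicate 1 had more in 135, replicate 2 more in 120, and 73 were equal. The widest gaps were in the desert from Slc10a2 to Efnb2, with 93 peaks in replicate 1 and 74 in replicate 2, and from Sel1l to Flrt2, with 93 and 111.

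The desert with the most peaks ran between Sel1l, a gene of protein quality control in the endoplasmic reticulum, and Flrt2, which encodes a cell surface adhesion protein, at chr12:92349158-95192225. It held 67 shared peaks in 2.84 Mb, or 23.6 per Mb, with median signals of 47 and 37. The desert from Slc10a2 to Efnb2, the gene of the ephrin-B2 ligand, held 58 at chr8:5605352-8139362, of which 37 were nearer to Efnb2. Between Adgrl2 and Adgrl4, which encode adhesion receptors, 56 lay in 1.45 Mb at chr3:149490556-150937886, and 44 of them were on the Adgrl2 side. None of the 181 peaks in these 3 deserts held a CTCF site, and a count of 0 allows a share of up to 1.66%, counting error only. The desert before Sox9, at chr11:111566165-112282223, held 50 peaks in 0.716 Mb, or 69.8 per Mb, and 68 and 62 in the libraries alone. Its median signals of 59.5 and 47 were above those of all desert peaks, and 25 peaks lay nearer to each flank.

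The other deserts among the 10 were flanked by the following genes. Pcdh20 and Pcdh9 enclosed 49 peaks in 4.41 Mb, 16 of them inside Pcdh9. Zeb2, a repressor known from epithelial to mesenchymal transition, and Acvr2a, an activin receptor, enclosed 47, with 30 nearer to Zeb2. Zfp608 and Gramd3 enclosed 45 in 0.410 Mb, the highest density of any desert with 20 or more, 109.7 per Mb, with 58 and 74 in the libraries alone and medians of 56 and 48. Nmbr and Cited2 also enclosed 45, of which 32 lay nearer to Cited2. Slc4a3 and Epha4, a receptor for ephrins, enclosed 39 in 0.828 Mb. Tenm3, a teneurin adhesion gene, and Aga enclosed 39 in 3.67 Mb, and 36 of them lay nearer to Tenm3. Peaks were thus crowded toward 1 flank in some of these deserts (Adgrl2, Tenm3, Cited2) and evenly placed in others (Sox9).

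**Figure D4:**
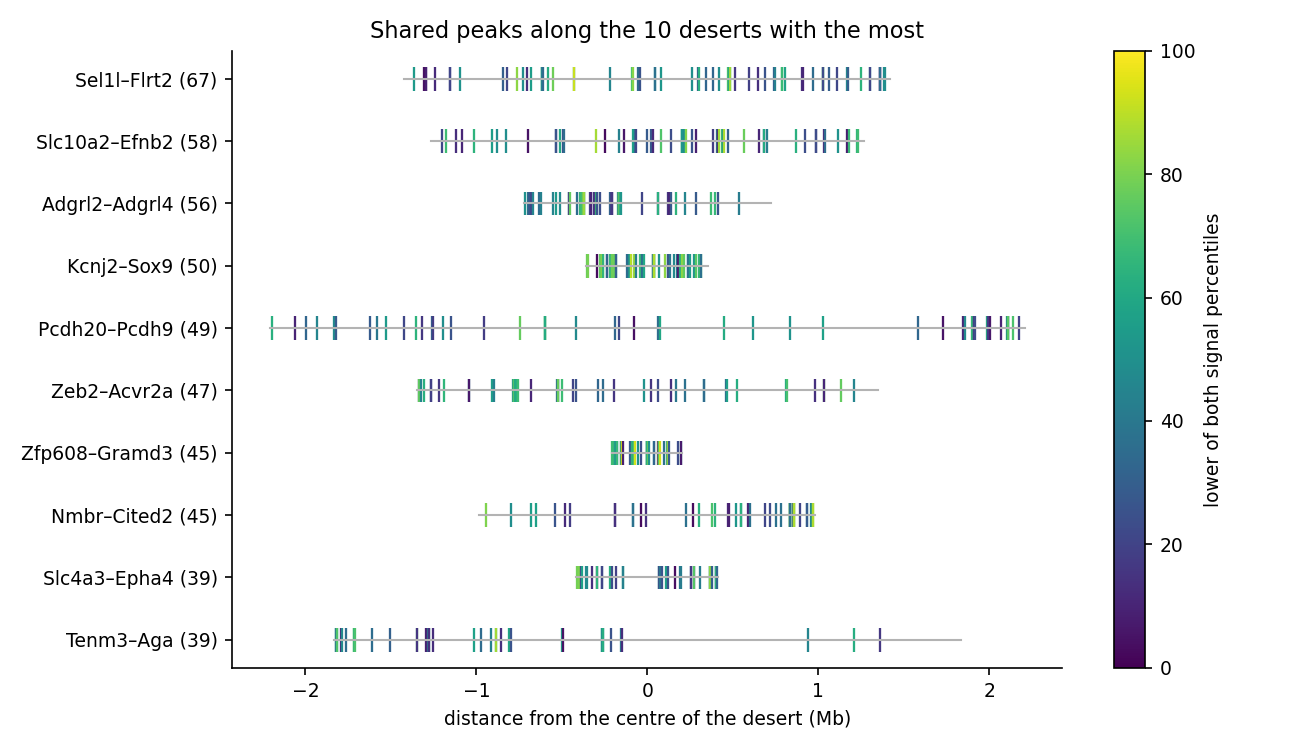
Shared peaks (ticks) along the 10 deserts with the most, by distance from the centre of each desert in Mb, coloured by the lower of the signal percentiles in both libraries. Counts are in brackets and grey lines span the sequence over 500 kb from both flanking starts; in the Tenm3–Aga desert 36 of 39 ticks lie on the Tenm3 side, and in the Kcnj2–Sox9 desert they fill the whole span.

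The densest deserts with 20 or more peaks, after that of Zfp608, lay beside Sall1 (23 peaks, 75.7 per Mb), Maf (20 peaks, 74.8 per Mb) and Sox9, followed by the desert from Vrk1 to 3110018I06Rik (28 peaks, 61.1 per Mb). Maf encodes a basic leucine zipper factor, and all 20 peaks in its desert lay inside the gene Wwox. The Sall1 desert held 28 and 31 peaks in the libraries alone, and its pair of CTCF site peaks had signals of 97 and 82 on the Sall1 side and 99 and 84 on the Tox3 side. At the other end were long deserts with next to no shared peak. From Adam6a to Zfp386, a span with 70 annotated immunoglobulin variable segments, 1 shared peak lay in 1.5 Mb, and each library had 1. Lrfn5 to Fscb held 2 in 1.95 Mb, Fam98a to Crim1 held 2 in 1.65 Mb and Cobl to Pom121l12 held 2 in 1.13 Mb. In the Fam98a to Crim1 desert replicate 2 alone had 12 peaks and replicate 1 had 3, so the libraries differed there.

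Density differed with the kind of gene that flanks a desert. The gene lists were drawn up with earlier results of these data known, so their contrast is a description and no independent support. Of 119 limb and skeletal transcription factor genes, 24 flanked 26 deserts. These deserts held 376 desert peaks in 12.1 Mb, or 31.1 per Mb (46.8 in replicate 1 and 47.9 in replicate 2). Of these 26 deserts 22 lay above the pooled 11.3 per Mb, against 145 of all 328 (44.2%). In the lists described below the count was 10 of 13 for neural and other developmental factors and 9 of 14 for signals and receptors. For adhesion genes it was 37 of 115. Desert length differed too, with 12.1 Mb in the 26 deserts beside limb factors against 127.0 Mb in the 115 beside adhesion genes. Density within deserts fell from 15.4 per Mb at 500 to 750 kb to 6.39 at 1000 to 1500 kb, a range that short deserts do not reach. The part of desert length in the order of the lists was not tested. Among those with 20 or more peaks, after Zfp608, Sox9, Sall1 and Maf, came the deserts beside Sall3 (20 peaks, 47.6 per Mb), a gene of the same family as Sall1, Nr2f2 (25 peaks, 40.9 per Mb), a nuclear receptor gene, and Dach1 (23 peaks, 35.4 per Mb), a cofactor gene of the distal limb. Below the pooled density were the deserts beside Mef2c (4 peaks in 0.712 Mb), Zfhx4 (2 in 0.584 Mb), Tfap2b (2 in 0.406 Mb) and Irx1 (1 in 0.118 Mb). The list thus held both kinds.

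Among 72 genes of signals, receptors and modulators, 13 flanked 14 deserts with 174 peaks, or 19.5 per Mb (30.8 and 28.3). Efnb2, Epha4 and Epha7, all of ephrin signalling, bordered the richest of them, and the short deserts beside Bmp2, Gdf6 and Epha3 held 0. Among 112 neural and other developmental transcription factor genes, 13 flanked 13 deserts with 155 peaks, or 18.8 per Mb (28.6 and 27.4). Bcl11a, Ets1 and Pou3f3 bordered the richest, with 29, 24 and 22 peaks, and the desert beside Rorb held 0. The 144 adhesion, synaptic and neuronal surface genes bordered far more desert, 115 deserts with 127.0 Mb, at 9.11 per Mb (13.9 and 14.8), in 1157 peaks. The 163 deserts without a listed gene held 10.6 per Mb (16.9 and 16.7). A desert with genes of more than 1 list on its sides counts under each.

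GC content also differed between these groups of deserts, though not in the same order. The median GC was 39.6% beside limb factors, 38.3% beside neural and other developmental factors, 38.0% without a listed gene, 37.7% beside signals and receptors and 37.3% beside adhesion genes. The most GC-rich of 4 ranges of similar length (38.0% to 47.6% GC, 62.1 Mb) held 20.1 desert peaks per Mb and the most GC-poor 5.75. Within the most GC-rich range, the 20 deserts beside limb factors held 48.7 per Mb (71.8 and 72.3 in the libraries alone), against 16.7 (26.0 and 24.8) in 85 deserts without a listed gene and 14.2 in 34 beside adhesion genes. In the next range the values were 14.9 per Mb in 2 deserts beside limb factors and 8.76 in 39 without a listed gene. In the range below that they were 12.7 in 3 and 8.16 in 23, and the most GC-poor range held 1 desert beside a limb factor, with 35.4 per Mb, against 5.17 in 16 without a listed gene. The gap to deserts without a listed gene was thus widest where 20 of the 26 deserts beside limb factors lie. The other ranges held few of them. Deserts beside adhesion genes held more per Mb than those without a listed gene in the 3 other ranges (5.65, 8.94 and 9.94 from the most GC-poor up), so the order of these groups was not the same in each range. Deserts beside a gene of another regulator list held 4.43, 19.3, 12.6 and 28.8 per Mb from the most GC-poor range up. They numbered 6, 5, 1 and 15, and in the second of these ranges they stood above limb factors (19.3 against 12.7). The part of GC in the order of the lists was not tested.

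**Figure D5:**
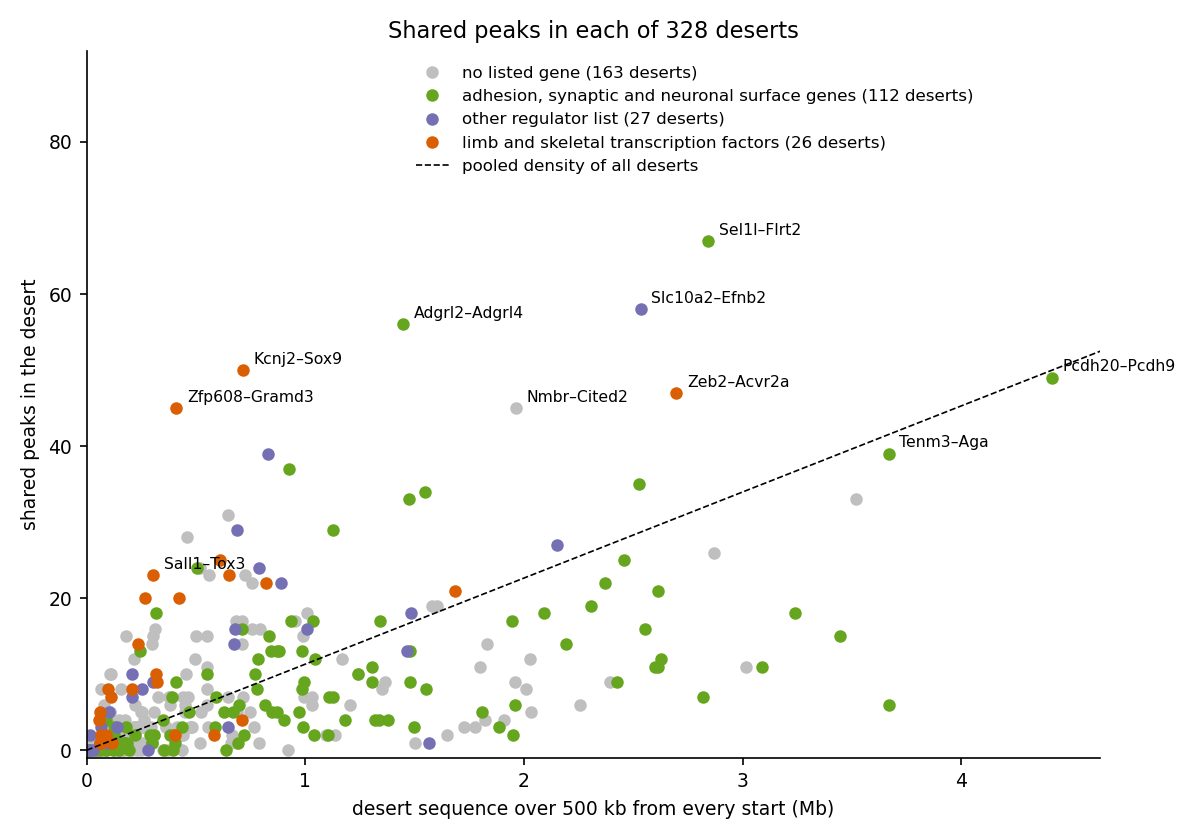
Shared peaks in each of 328 deserts (y axis) against the length of sequence over 500 kb from every start in Mb (x axis), coloured by the list of the flanking genes, where limb factors take precedence over the other lists; the dashed line is the pooled density. Of the 26 deserts beside limb and skeletal transcription factors 22 lie above the line. Counted by list, so do 10 of 13 beside neural and other developmental factors and 9 of 14 beside signals and receptors.

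By the nearest start, 401 desert peaks, or 14.1%, belonged to a gene of the 3 regulator lists, against 6.85% of all shared peaks and 13.1% at 100 to 500 kb. The share was thus close to that of the next distance class. The desert sequence nearest to such a gene was 5.85% of all desert sequence. Limb factors had 215 of the 401 and a median signal of 49 and 40, or percentiles of 54.0 and 52.4, above the 45.5 and 43.6 of all desert peaks. Adhesion, synaptic and neuronal surface genes were nearest to 685, or 24.2%, against 3.0% of all shared peaks, and they also held 29.5% of the desert sequence. Desert peaks at adhesion genes were therefore fewer per Mb (9.26) than those at limb factors (35.6), although more numerous.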

How the data were processed

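DNase-seq of 1 group, 2 biological replicates of mouse limb at 11.5 days, was analysed. Peaks and hotspots had been called on the filtered mm10 alignment of each library, per the deposited file descriptions. Which aligner and which caller were run is not given in the sources used. The authors deposited a signal for each peak, whose scale is not stated, and a −log10 q value for each hotspot, which ends at a ceiling of 100. No read counts were used, so depth is unknown and no interval needing it is given.

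Overlaps (1 bp), distances to 54361 starts of 21853 protein-coding genes, repeat masking and words were computed with Python 3.11.15, NumPy 2.4.6 and pandas 2.3.3. Overlaps, merging, distances, desert limits and the CTCF word were tested on simulated data. Repeat masking and the other words were not. Signal percentiles were taken within each library's list. Deserts are runs of sequence over 500 kb from both neighbouring starts. A neighbour within 20 kb was any shared peak. Named deserts were the 10 with the most peaks, the 5 densest with 20 or more and the 5 over 1 Mb with the fewest, and named peaks the 5 strongest, the strongest of the 3 richest deserts, the 3 strongest with a CTCF site or at a long noncoding RNA start and the 3 farthest. Of the deserts so named, 1 is not reported here. Sequences shown were picked from these, outside 1 chromosome, and capitals for both E-boxes and other genes in the text were chosen after values were seen. The distance rule and the gene lists were chosen with earlier results of these data known. Alternatives changed starts, distance, overlap, signal cut-off, windows and library.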

Additional observations from a re-analysis of the deposited data

Results flagged for a closer look

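Chromosome X was outside the comparisons. By the same rule 35 of its 2809 shared peaks lay over 500 kb from every protein-coding start, with median signals of 36 in replicate 1 and 28 in replicate 2. They are named because they are signal in data that the report does not use, with no control sample beside them.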

How the results depend on the processing

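Depth is unknown, the labels give 1 group, and the signal has no stated scale, so the values describe these 2 libraries. Words and masking depend on the reference, and nearest genes are not targets. No paired analysis was possible because there is a single group. Of 79 alternative values 24 moved by less than the SD over both libraries or, for counts, by less than 1.5 times, and 55 moved by more. That SD rests on 2 values and was 0.0640 percentage points for the share found again.

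At 1 Mb there were 496 desert peaks, 0.429% of shared peaks, at 6.44 per Mb; 64.7% were found again, 10.5% had a masked centre, 50.2% a neighbour, 13.3% a regulator nearest, and the 10 richest deserts held 251. At 400 kb there were 4370, or 3.78%, at 13.4 per Mb, 65.7% with a neighbour. With 1 start per gene the share was 3.37%, at 13.6 per Mb; 66.7% were found again, 3.33% had a CTCF site, 66.6% a neighbour and 13.4% a regulator nearest. With every transcript start of protein-coding genes, added after seeing the data, 2552 desert peaks lay at 11 per Mb. With peaks above the median signal there were 922, or 1.39%, at 3.68 per Mb and a median percentile of 71.1; 96.4% were found again, 6.51% had a CTCF site, 6.94% a masked centre, 47.2% a neighbour and 17.1% a regulator nearest, and the 10 richest deserts held 211.

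An overlap of 75 bp gave 10.3 per Mb, 59.4% found again, 3.28% with a CTCF site and 58.4% with a neighbour. CTCF sites came to 6.42% with 1 mismatch allowed in the opening letters of the consensus only, and no share of other peaks or windows is given for that setting. Centres masked over most of the window came to 2.61% and neighbours within 50 kb to 81.3%. Neighbours among desert peaks alone, also added later, came to 61.4%, and 69.1% were found in a hotspot of the other library. Outside protein-coding gene bodies, chosen after seeing the data, 2603 desert peaks remained, with 3.0% holding a CTCF site.

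Without replicate 1 or replicate 2 the ranges were 4408 to 4467 desert peaks, 2.59% to 2.74% of peaks, 17.6 to 17.8 per Mb, a median percentile of 28.0 to 30.7 (unshared peaks are then included), 2.04% to 2.16% with a CTCF site, 9.37% to 10.8% with a masked centre, 72.3% to 72.7% with a neighbour, 13.4% to 13.8% with a regulator nearest and 714 to 746 in the 10 richest deserts. The share found again cannot be given for 1 library. The cause of these moves was not tested. At 100 to 500 kb replicate 1 alone held 46.9 peaks per Mb and replicate 2 alone 45.6, above the desert densities of the single libraries. For the other settings that class was not recomputed, so no like comparison of density is given for them.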
